A study of Mus musculus with 2 samples.

Results

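The genes described here are 35 members of the heat shock response and the unfolded protein response, chosen by gene symbol and divided by where their products work. They are 12 cytosolic chaperones, 3 mitochondrial chaperones, 15 genes of the endoplasmic reticulum (ER) and 5 regulators of the unfolded protein response. All 35 symbols had a row among the 23282 rows of the count files, and all 35 reached the summed count of 20 that 14854 genes reached. Dorsal root ganglia of wild-type mice were sequenced as 1 control library, from mice given water, and 1 AEW library, from mice given acetone, ether and water to dry the skin. Treatment ran for 5 days and ganglia were taken on day 6, with RNA of 6 mice pooled in each group. Gene counts summed to 9333882 (control) and 14376228 (AEW), compared here as CPM, counts per 1000000 counts after TMM scaling. With 1 pool a group no difference below has a replicate check, and no p-value is given. The labels name neurons as the cell type, but markers of myelinating Schwann cells summed to 20733 CPM in the control against 10659 for pan-neuronal markers. In such tissue RNA, fewer cells of a type and less RNA per cell cannot be told apart.

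Chaperones bind unfolded proteins and help them reach or keep their shape. In the cytosol, heat shock factor 1 raises HSP70, HSP90 and their helpers when unfolded proteins build up. In the ER, the sensors IRE1, PERK and ATF6 detect the same kind of overload and raise ER chaperones through XBP1, ATF4 and cleaved ATF6. Sensory neurons make and export large amounts of channels, receptors and peptides through the ER, and small heat shock proteins such as Hspb1 are known for their role in axons.

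Promoter sequences of the members were searched for the elements that the stress factors bind. Windows of 300 bases, from 250 before to 50 after the start site, were taken from RefSeq promoters on GRCm38.p6, and 28 of the 35 members matched. Hsp90aa1, Hsp90ab1, Hspa8, Cryab, Hspa9, Manf and Atf6 were not among them. The ER stress element, which ATF6 and XBP1 bind with a CCAAT-binding factor, was searched as CCAAT, 9 bases and CCACG on both strands. It was found in 7 of 14 ER members and in none of the 8 cytosolic, 2 mitochondrial and 4 regulator genes, against 0.137% of the 27025 symbols with a window. The matches are shown because these genes share the element yet had AEW to control ratios from 0.794 to 2.40. Each is read in the direction of its gene, with the fixed letters in capitals, and a match on the opposite strand reads CGTGG to ATTGG.
Hspa5, chr2:34772025-34772043, plus strand: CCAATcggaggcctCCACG
Hsp90b1, chr10:86705638-86705656, minus strand: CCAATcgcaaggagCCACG
Hsp90b1, chr10:86705533-86705551, minus strand: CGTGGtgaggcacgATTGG
Calr, chr8:84847075-84847093, minus strand: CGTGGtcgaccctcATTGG
Canx, chr11:50325800-50325818, minus strand: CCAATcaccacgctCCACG
Pdia6, chr12:17266491-17266509, plus strand: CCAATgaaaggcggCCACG
Dnajc3, chr14:118937827-118937845, plus strand: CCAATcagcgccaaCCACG
Creld2, chr15:88819520-88819538, plus strand: CGTGGcgagcctcaATTGG

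Of the 3 ER genes called, Creld2 (higher) and Herpud1 (lower) had the element or its short form and are shown with the 250 bases before their RefSeq start sites, on the plus strand at chr15:88819396-88819645 and chr8:94386179-94386428. Capitals mark the ER stress element in Creld2 and its short form, searched as ATTGG, 1 base and CCACG on both strands, in Herpud1. The short form was present in 0.0444% of symbols and in 2 members, Herpud1 and Dnajb11. Pdia4, the third ER gene called and the lowest in ratio, had neither form in its window.
Creld2: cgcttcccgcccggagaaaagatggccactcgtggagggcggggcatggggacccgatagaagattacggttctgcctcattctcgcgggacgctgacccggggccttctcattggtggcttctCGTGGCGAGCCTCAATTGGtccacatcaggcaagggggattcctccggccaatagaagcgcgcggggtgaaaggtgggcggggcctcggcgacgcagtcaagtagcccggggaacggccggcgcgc
Herpud1: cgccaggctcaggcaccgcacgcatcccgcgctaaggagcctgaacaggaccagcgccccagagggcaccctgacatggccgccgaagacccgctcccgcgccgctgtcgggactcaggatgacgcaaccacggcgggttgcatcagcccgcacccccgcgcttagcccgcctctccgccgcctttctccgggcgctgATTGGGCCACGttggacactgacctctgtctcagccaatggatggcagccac

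The heat shock element was searched as 3 alternating units of GAA and TTC with 2 bases between them, on both strands, and 0.662% of symbols had it. Only exact units were matched, so an element with an altered unit would be missed. The windows of Hspa1a, Hspa1b, Dnajb1 and Hspb1, among others, held no exact match. Among members it was found in Hsph1, after the start site, and in the mitochondrial pair Hspd1 and Hspe1. Annotated exons of this pair overlap by 112 bases on opposite strands. The same 18 bases, at chr1:55088059-55088076, lay before the start of Hspe1 and before 1 of the 2 starts of Hspd1, shown here as read toward Hspe1 with the units in capitals.
Hspe1: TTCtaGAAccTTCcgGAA

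An unfolded protein element, TGACGTG on either strand, was in the window of Hspa5 and in 2.22% of symbols. The amino acid response element bound by ATF4, as TGATG, 1 base and AAT on either strand, was in no member and in 1.08% of symbols. A match describes letters only.

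Most members differed little between the libraries. A gene was called higher or lower when the ratio of scaled CPM, AEW to control, was at least 1.5-fold and its exact 95% counting interval excluded 1. Of the 35 members, 3 were called higher (8.57%, against 17.3% of all measured genes), namely Hsp90ab1, Hspa1a and Creld2. Pdia4 and Herpud1 were called lower (5.71%, against 14.9% of all measured genes), and 30 were called neither. The median log2 ratio of the members was 0.04, beside 0.03 for all measured genes, and the middle 50% of the members lay between -0.14 and 0.33. No called member also stood more than 3 scaled median absolute deviations apart from its 500 neighbours in expression level, a limit passed by 1.21% of all genes on the higher side and 0.478% on the lower. The calls depend on the scale: when libraries were scaled on pan-neuronal markers, which put the median log2 ratio of all genes at -0.82, 0 members were called higher and 24 lower, beside 3.22% and 63.2% of all genes. On that scale the log2 ratio was -0.063 for Hsp90ab1, -0.24 for Hspa1a and 0.41 for Creld2, and the medians were -0.54 for cytosolic and -0.92 for ER genes. Correction for transcript GC content ended the call of Hspa1a, at a log2 ratio of 0.42, as did asking that the interval exclude 1.5-fold, which left 2 members higher and 2 lower, beside 8.93% and 7.21% of all genes.

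**Figure D1:**
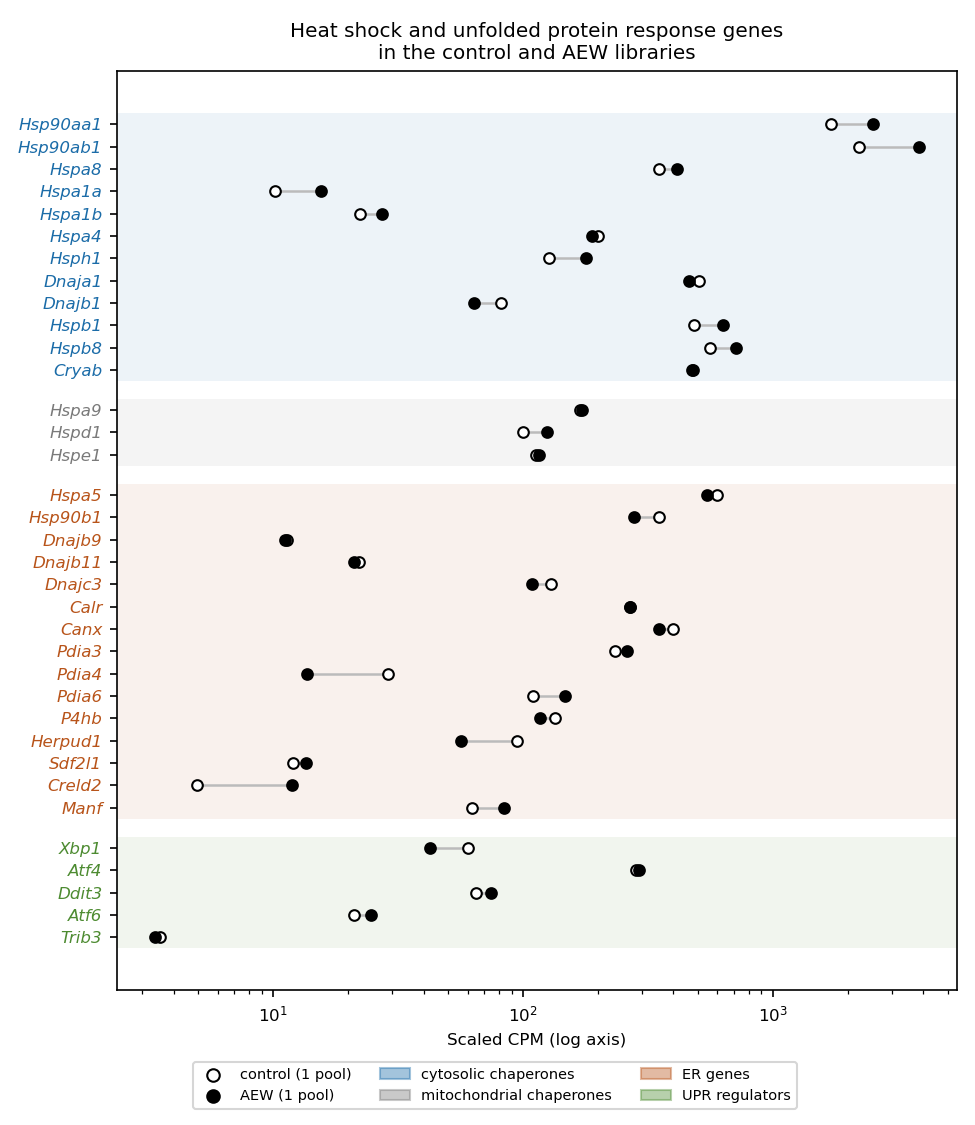
Scaled CPM (log axis) of the 35 members, with open circles for the control library, filled circles for the AEW library (1 pool each) and shading by group. The 2 cytosolic HSP90 genes at the top right have more CPM in the AEW library, while most ER genes lie close to or left of their control value.

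Among the 12 cytosolic members, 9 ratios lay above 1, beside 52.2% of all measured genes, and the median log2 ratio was 0.32. In this group 2 genes were called higher (16.7%, against 17.3% of all measured genes) and none lower (against 14.9%). The interval lay wholly above 1 for 8 of the 12 and wholly below for 2. Among all measured genes, not matched for abundance, 32.0% lay wholly above and 28.9% wholly below. Intervals are narrower at higher counts, so these shares are not on equal terms with the members. Together the 12 genes had 6732 CPM in the control against 9528 CPM with AEW, a ratio of 1.42 (95% counting interval 1.40 to 1.43). Intervals cover counting error only, because each group is 1 pool. The labels name no molecular identifiers, so amplified copies of a molecule cannot be told apart here and the intervals may be too narrow.

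The HSP90 genes gave most of these counts. Hsp90ab1 (ENSMUSG00000023944.14, chr17:45567775-45573271, minus strand), the constitutive cytosolic HSP90, had 20024 counts (2212 CPM) in the control against 56883 (3838 CPM) with AEW. It was called higher at 1.74-fold (1.71 to 1.76), the firmest of the 3 calls by counts. Hsp90aa1, the stress-inducible relative, had 1701 and 2519 CPM, a ratio of 1.48 (1.45 to 1.51) just under the limit, and it was called under total count scaling and after correction for transcript GC content. Per kilobase of annotated exon, Hsp90ab1 had 737 CPM in the control, above Hspb1 at 471 and Hsp90aa1 at 433. Those levels hold if reads cover whole transcripts. The labels name a Lexogen Quant-Seq kit, a name used for sequencing of transcript ends, and on plain CPM in the control Hsp90ab1 also came first among the cytosolic members, followed by Hsp90aa1 and Hspb8.

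The cytosolic HSP70 genes among the members, Hspa8, Hspa1a and Hspa1b, had ratios between 1.18 and 1.53. Outside the members, and named after their values were seen, Hspa2 had a ratio of 0.669 (0.578 to 0.774) and Hspa14 1.08, neither called. Hspa8, the constitutive cytosolic HSP70, had 349.9 CPM in the control against 412 CPM with AEW, a ratio of 1.18 (1.13 to 1.23). Hspa1a and Hspa1b, the classical heat-inducible HSP70 genes, stand side by side on chromosome 17. Hspa1a had 92 counts in the control against 231 with AEW and was called higher at 1.53-fold (1.2 to 1.98), whereas Hspa1b had 201 and 405 counts and a ratio of 1.23 (1.04 to 1.47). Their transcripts share 63.8% of the 31-base words of Hspa1a, so the split of reads between them is uncertain. With both genes summed, 293 and 636 counts gave a ratio of 1.33 (1.15 to 1.53), which is not a call. Hspa4 and Hsph1 encode HSP110 proteins, which release nucleotide from HSP70. Hspa4 had 200.1 and 189.7 CPM (ratio 0.948, 0.893 to 1.01), and Hsph1 had 127 and 178 CPM (1.40, 1.31 to 1.5).

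J proteins deliver substrates to HSP70. The cytosolic ones among the members, Dnajb1 and Dnaja1, had ratios below 1, and that of Dnaja1 turned with GC correction. Further J proteins, named after their values were seen and none called, lay on both sides of 1. Dnajb2 had a ratio of 1.26 (1.13 to 1.41), Dnajb5 1.08, Dnaja4 1.06, Dnajb4 1.005, Dnaja2 0.876 and Dnajb6 0.870. Dnajb1, a heat-inducible J protein, had 81.7 CPM in the control against 63.4 CPM with AEW, a ratio of 0.776 (0.704 to 0.856) that is the lowest of the cytosolic group. Dnaja1 had 507 and 461 CPM, a ratio of 0.909 (0.875 to 0.944), and its log2 ratio of -0.14 became 0.12 after correction for transcript GC content. The small heat shock proteins hold unfolded proteins without using ATP. Hspb1, a HSP27 gene that is abundant in sensory neurons and linked to inherited neuropathy, had 485 and 630.5 CPM, a ratio of 1.30 (1.25 to 1.35). Hspb8, which works with the cochaperone Bag3 in selective autophagy, had 562 and 713 CPM (1.27, 1.23 to 1.31). Cryab, alpha-B crystallin, had 475 CPM in the control against 481 CPM with AEW (1.01, 0.975 to 1.05). Annotated exons of Cryab overlap those of Hspb2 on the other strand by 252 bases, and whether counting used strand is not given. Such overlaps were longer for Dnaja1 (857 bases), Hspa1a (564 bases), Hsp90b1 (415 bases) and Manf (312 bases).

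The 3 mitochondrial chaperones were called neither higher nor lower, and their summed level was 381 CPM in the control against 412 CPM with AEW. Hspa9, the mitochondrial HSP70, had 169 CPM in the control against 172 CPM with AEW, a ratio of 1.02 (0.955 to 1.09). Hspd1, the chaperonin HSP60, had 99.7 and 125 CPM, a ratio of 1.25 (1.15 to 1.35). Hspe1, its HSP10 lid, had 113 and 116 CPM, a ratio of 1.03 (0.949 to 1.11). Within a library, the Hspd1 to Hspe1 count ratio was 0.883 in the control against 1.08 with AEW, 1.22 times higher (1.09 to 1.36).

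**Figure D2:**
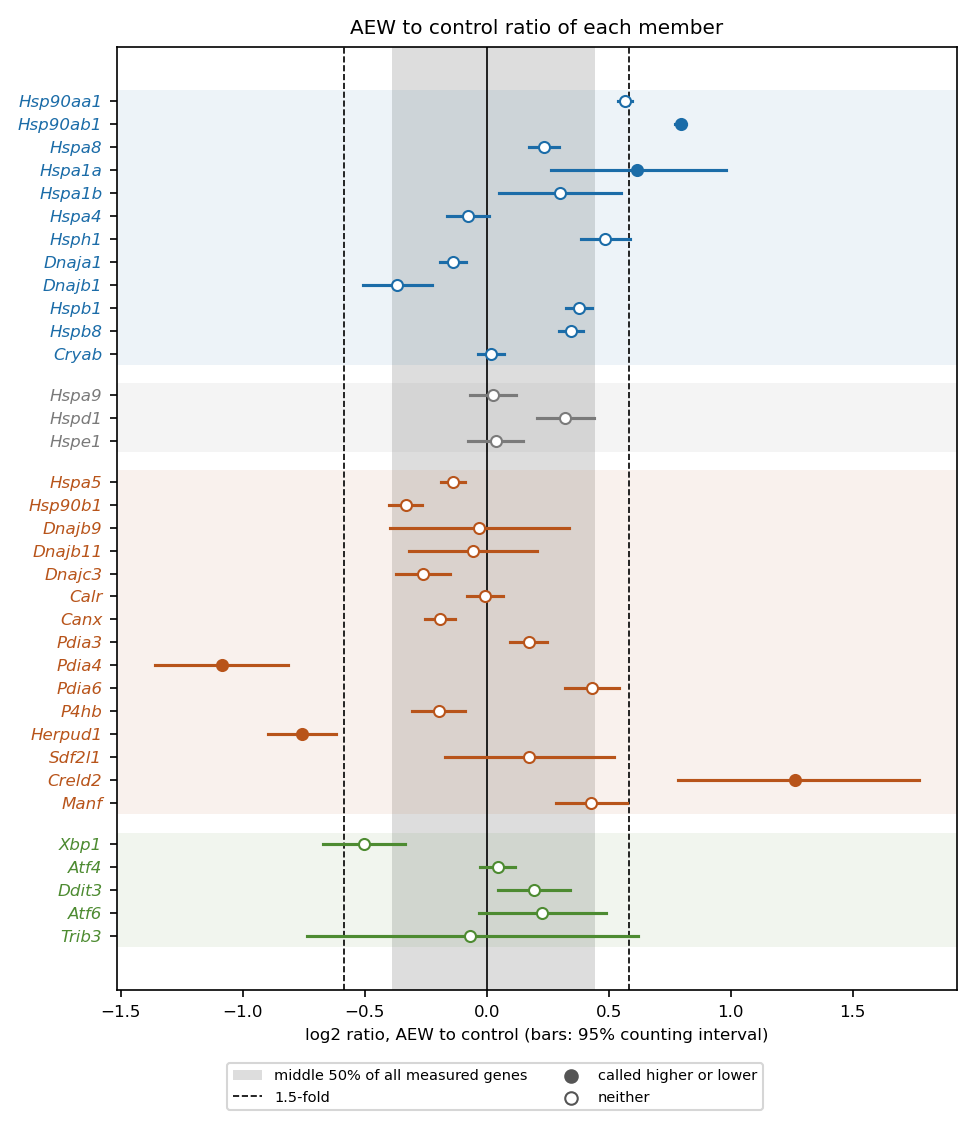
AEW to control log2 ratio of each member with its 95% counting interval, filled where called, with dashed lines at 1.5-fold and grey for the middle 50% of all measured genes. Filled points are Hsp90ab1, Hspa1a and Creld2 on the right and Pdia4 and Herpud1 on the left.

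The ER genes had a median log2 ratio of -0.06, with 10 of 15 ratios below 1 and 5 above, beside 52.2% of all measured genes above 1. Of the 15, 1 was called higher (6.67%, against 17.3% of all measured genes) and 2 lower (13.3%, against 14.9%). The interval lay wholly below 1 for 7, wholly above for 4 and held 1 for the other 4. Among all measured genes, not matched for abundance, 28.9% lay wholly below and 32.0% wholly above. The summed level of the ER genes was 2459 CPM in the control against 2286 CPM with AEW, a ratio of 0.930 (0.914 to 0.946). Under total count scaling the median log2 ratio was 0.03, beside 0.12 for all genes. The 7 members with the full ER stress element had 1 call, Creld2, and a median of -0.14. The 7 with a window and no full element had 2 calls, Pdia4 and Herpud1, and a median of -0.06. These 7 include Herpud1 and Dnajb11, which have the short form, so they are not a group without any form of the element. Log2 ratios in the group ranged over 2.35, against 1.16 in the cytosolic group, and both ends of the range, Creld2 and Pdia4, were among the less abundant genes.

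None of the abundant ER chaperones was called. Hspa5 (BiP), the ER HSP70 and the usual marker of the unfolded protein response, had 5428 counts (599.5 CPM) in the control against 8082 (545 CPM) with AEW, a ratio of 0.910 (0.879 to 0.942). Hsp90b1 (GRP94), the ER HSP90, had 350.1 and 278 CPM, a ratio of 0.794 (0.758 to 0.832). The lectin chaperones that hold glycoproteins are Calr, with 269 and 267 CPM (0.996, 0.946 to 1.05), and Canx, with 398 and 349 CPM (0.876, 0.839 to 0.914). The log2 ratio of Canx, -0.19, became 0.024 after GC correction. The ER J proteins work with BiP. Dnajc3, also known as an inhibitor of PERK, had 130.0 CPM in the control against 108 CPM with AEW (0.834, 0.773 to 0.900). Dnajb9, an IRE1-XBP1 target, had 103 and 165 counts (0.979, 0.761 to 1.26), and Dnajb11 had 199 and 313 counts (0.961, 0.802 to 1.15).

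Ratios of the disulfide isomerases lay on both sides of 1. Pdia4 (ENSMUSG00000025823.9, chr6:47796141-47813430, minus strand) had 262 counts (28.9 CPM) in the control against 202 (13.6 CPM) with AEW, and it was called lower at 2.12-fold (1.76 to 2.56). Pdia6 had 109 and 147 CPM, a ratio of 1.35 (1.25 to 1.45). Pdia3, which works with Calr and Canx, had 232 CPM in the control against 262 CPM with AEW (1.13, 1.07 to 1.19). P4hb, the founding isomerase and a subunit of collagen prolyl hydroxylase, had 134 and 117 CPM (0.872, 0.810 to 0.939).

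The remaining ER members included 1 gene called higher and 1 called lower. Creld2 (ENSMUSG00000023272.4, chr15:88819646-88826683, plus strand), an ATF6-induced secreted protein, had 45 counts (4.97 CPM) in the control against 177 (11.9 CPM) with AEW, and it was called higher at 2.40-fold (1.72 to 3.41). Manf, a secreted ER stress protein that protects neurons, had 62.6 and 84.3 CPM, a ratio of 1.35 (1.22 to 1.49). Sdf2l1, a BiP cofactor, had 109 and 201 counts, a ratio of 1.13 (0.888 to 1.44). Herpud1 (ENSMUSG00000031770.16, chr8:94386438-94395377, plus strand), a membrane component of ER-associated degradation, had 860 counts (95 CPM) in the control against 834 (56.3 CPM) with AEW, and it was called lower at 1.69-fold (1.53 to 1.86). The Creld2 to Herpud1 count ratio, which needs no scaling between libraries, was 0.0523 in the control against 0.212 with AEW, 4.06 times higher (2.86 to 5.84). The pair was picked for its difference, so this is a description.

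No regulator was called, and the 5 together had 432.5 CPM in the control against 436 CPM with AEW. Xbp1, the factor activated by IRE1 through RNA splicing, had 60.1 CPM in the control against 42.4 CPM with AEW, a ratio of 0.705 (0.628 to 0.793) just inside the limit on the lower side. Gene counts do not separate its spliced form. Atf6, the membrane-bound factor, had 21 and 24.6 CPM (1.17, 0.979 to 1.40). On the PERK arm, Atf4 had 283 and 292 CPM (1.03, 0.982 to 1.08). Ddit3 (CHOP), the ATF4 target tied to cell death, had 65.1 and 74.4 CPM (1.14, 1.03 to 1.27). Trib3, a further target, had 32 counts in the control against 50 with AEW, so its ratio of 0.955 has a wide interval (0.601 to 1.54). Exons of Ddit3 overlap those of Gm4189 and Mars on the other strand by 81 bases.

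Cytosolic and ER genes were compared within each library, where scaling between libraries cancels. ER genes took 26.8% (exact binomial 95% interval 26.5 to 27.1) of the summed cytosolic and ER counts for control against 19.3% (19.2 to 19.5) for AEW. Without Hsp90aa1 and Hsp90ab1 the shares were 46.6% (46.1 to 47.0) and 41.9% (41.6 to 42.2). The ER median log2 ratio minus the cytosolic one was -0.38, and -0.22 after correction for transcript GC content. Transcripts of the cytosolic members had a median GC content of 51.9%, those of the ER members 48.9%.

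Cytosolic and ER relatives were also compared by family. The Hsp90ab1 to Hsp90b1 count ratio was 6.32 in the control against 13.8 with AEW, 2.19 times higher (2.08 to 2.30). For Hsp90aa1 to Hsp90b1 it was 4.86 and 9.06, 1.87 times higher (1.77 to 1.96). Among HSP70 members, Hspa8 to Hspa5 was 0.584 in the control against 0.755 with AEW, 1.29 times higher (1.22 to 1.37). Hspa1a to Hspa5 was 1.69 times higher (1.32 to 2.18) and Hspa1b to Hspa5 1.35 times higher (1.14 to 1.62). Among J protein members, Dnajb1 to Dnajb11 was 3.72 and 3.0, a change of 0.808 (0.656 to 0.993). Dnaja1 to Dnajb11 was 23.1 and 21.8, a change of 0.946 (0.785 to 1.14) whose interval holds 1, and with GC correction the log2 ratio of Dnaja1 (0.12) lay above that of Dnajb11 (-0.07). These pairs are not separate measurements, since they share Hsp90b1, Hspa5 or Dnajb11, and the small heat shock proteins have no ER relative among the members.

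**Figure D3:**
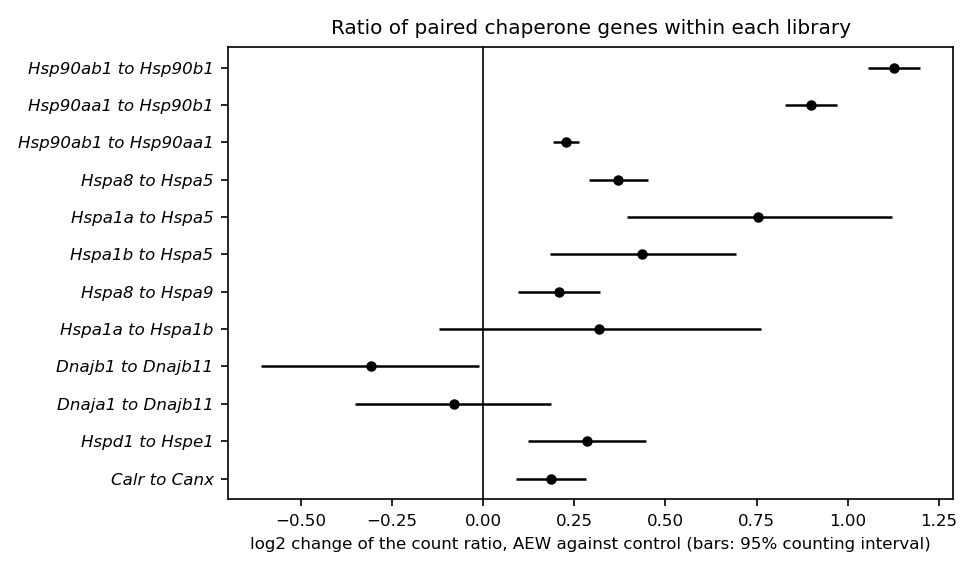
Change of the count ratio of 12 gene pairs between the libraries, on a log2 scale with 95% counting intervals, where 0 means the same ratio in both. The 2 pairs of cytosolic against ER HSP90 lie farthest right, and the 2 J protein pairs lie left of 0.

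The cytosolic members share more sequence with other genes than the ER members do. In GENCODE M21 transcripts, over 10% of the 31-base words of 7 of 12 cytosolic members also occurred in another gene, often a processed pseudogene, against 1 of 15 ER members and 3 of 3 mitochondrial ones. The share was 62.9% for Hsp90aa1, 59.7% for Hspa8, 56.7% for Hspb1 and 16.6% for Hsp90ab1. The 7 cytosolic members with shared sequence had a median log2 ratio of 0.38, and the other 5 (Hspa4, Hsph1, Dnajb1, Hspb8 and Cryab) a median of 0.02. Without members of shared sequence the ER median lay at -0.12 relative to the cytosolic one, and ER genes took 62.9% (62.4 to 63.4) of counts for control against 58.3% (57.9 to 58.7) for AEW. The counting rule for reads that match several genes is not given, and the part this played in the difference was not tested.

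Other genes of the same pathways were taken from lists, with the all-gene shares above as the background. Of 36 further cytosolic chaperones and cochaperones, 7 were called higher and 1 lower (median log2 ratio 0.17). The HSP90 cochaperone Fkbp4 had 176 CPM in the control against 398 CPM with AEW, 2.26-fold higher (2.13 to 2.39), and Bag2, an HSP70 regulator, was 2.72-fold higher (1.98 to 3.81). A further pair of HSP90 cochaperones called higher, named here after their values were seen, was Ahsa1 at 2.14-fold (1.96 to 2.34) and Stip1 at 2.10-fold (1.93 to 2.29). Further cochaperones of the HSP90 and HSP70 cycle, also named after their values were seen, were not called. Among them were Fkbp5 at a ratio of 0.748 (0.676 to 0.828), St13 at 0.919, Ahsa2 at 0.921, Ptges3 at 0.945 and Cdc37 at 1.14. Hspa12b, a distant HSP70 relative of blood vessels, was 2.20-fold lower (1.33 to 3.69).

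The CCT chaperonin, the ring that folds actin and tubulin, had 2 of 8 subunits called higher and none lower, with a median log2 ratio of 0.48. Cct7 was 1.93-fold higher (1.83 to 2.03) and Tcp1 1.60-fold higher (1.48 to 1.72), while Cct4 had a ratio of 0.882. Of 10 further mitochondrial chaperones and proteases, only Trap1, the mitochondrial HSP90, was called, 1.67-fold higher (1.46 to 1.92).

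On the ER side, 41 further folding genes had 5 called higher, 12 lower and a median log2 ratio of -0.11. Hyou1, the ER HSP110, was 1.84-fold higher (1.59 to 2.14) and Fkbp2, a prolyl isomerase, 1.77-fold higher (1.53 to 2.07). Fkbp9, a further ER prolyl isomerase, was 2.17-fold lower (1.97 to 2.38) and Rcn1, a calcium-binding protein, 1.81-fold lower (1.64 to 2.0). Also among the 12, named after their values were seen, were the collagen-folding genes Serpinh1 and Fkbp10, with ratios of 0.597 and 0.615. Markers of fibroblasts, which make much of a tissue's collagen, included 7 of 12 called lower and 0 called higher. Their sum was 15180 CPM in the control against 7316 CPM with AEW. The collagen genes among these markers were not called, with ratios of 0.992 for Col1a1, 0.803 for Col1a2, 0.795 for Col3a1 and 0.714 for Col5a1. The part of fibroblasts in the ratios of the folding genes was not tested.

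Genes of ER-associated degradation, which returns misfolded proteins to the cytosol, had 2 of 21 called higher and none lower (median 0.04). The ligase Syvn1 was 1.66-fold higher (1.40 to 1.99) and the ligase Rnf5 1.57-fold higher (1.21 to 2.05), opposite to Herpud1, which binds Syvn1. ER translocation genes had 3 of 29 called higher and 1 lower (median -0.04). The translocon subunits Sec61a2 and Sec61g were 2.25-fold higher (1.83 to 2.80) and 2.34-fold lower (2.22 to 2.46), and the glycosylation subunit Dad1 was 1.69-fold higher (1.57 to 1.81). Among 7 measured sensors and proteases, Atf6b at 1.52-fold (1.35 to 1.70) and Creb3l1 at 1.51-fold (1.31 to 1.73) were called higher. Eif2ak3, the PERK gene, had a ratio of 1.02, and Ern1, the IRE1 gene, had 6 and 6 counts, too few to compare.

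Targets of the integrated stress response, the ATF4 programme, had 5 of 37 called higher and 6 lower (median 0.20). The amino acid enzyme Aldh18a1 was 2.91-fold higher (1.59 to 5.78), on only 13 counts in the control against 62 with AEW. The folate enzyme Mthfd2 was 1.55-fold higher (1.34 to 1.79), on 270 and 685 counts. The cystine transporter Slc7a11 was 2.30-fold lower (1.92 to 2.77), and Atf3, also a nerve injury gene, 4.63-fold lower (3.75 to 5.74).

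**Figure D4:**
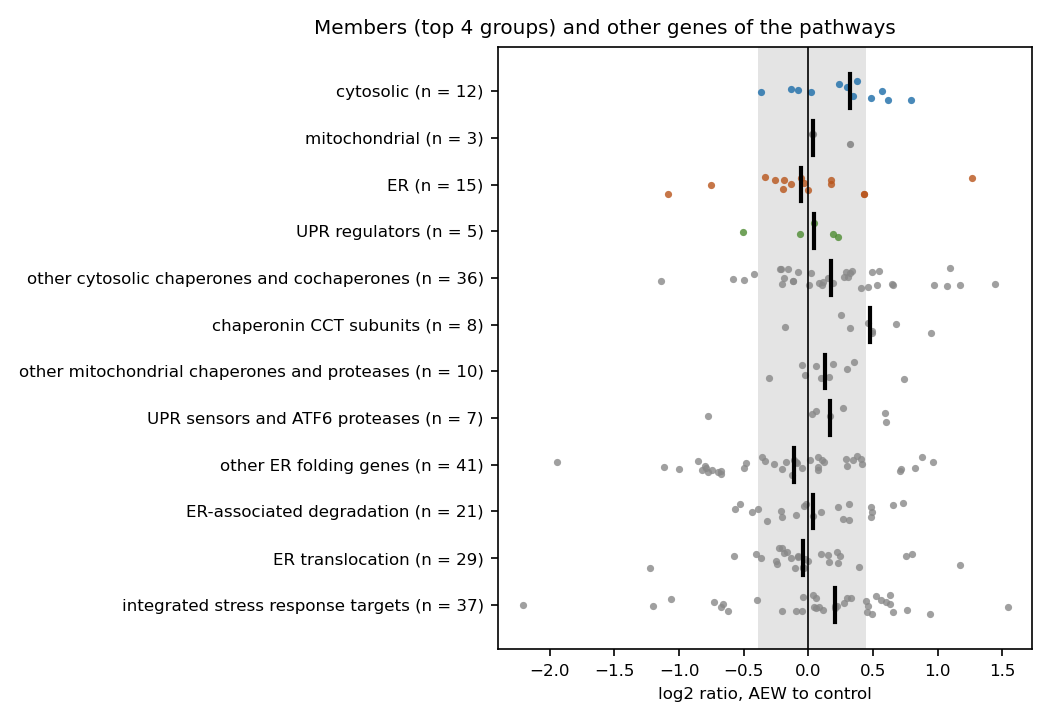
AEW to control log2 ratios of measured genes in the 4 member groups (coloured) and 8 further pathway lists (grey), with a black bar at each median and light grey for the middle 50% of all measured genes. The cytosolic and CCT medians lie highest, at 0.32 and 0.48, and that of the other ER folding genes lowest, at -0.11.

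Markers of several cell types differed between the libraries as well. Of 21 pan-neuronal markers 12 were called higher and 0 lower, beside 17.3% and 14.9% of all measured genes. Their sum went from 10659 to 16776 CPM. All 15 epidermal markers were called higher, from 38.7 to 983 CPM, with Flg2 and Dsg1a at 0 in the control. Macrophage markers were called lower in 15 of 16 (905 to 344 CPM) and muscle markers in 11 of 16 (2804 to 1376 CPM). Red blood cell markers were called lower in 8 of 10 (69997 to 41972 CPM). Satellite glia markers had 3 of 12 called lower and 9 ratios below 1 (10645 to 8620 CPM). For Schwann cell markers 3 of 11 were called lower and 10 ratios lay below 1 (20733 to 17424 CPM). Endothelial markers were near the all-gene share, with 2 of 11 called lower (18.2%) and 6 ratios above 1 (268 to 256 CPM). Their median log2 ratio was 0.008. Plasma cell markers, of cells rich in ER chaperones, had 3 of 8 lower and 1 higher, with a median log2 ratio of -0.98. Their sum was 38.3 and 41.6 CPM, of which Sdc1, also an epithelial gene, gave 21.1 and 30.6 CPM. The part of these cells in the members' ratios was not tested.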

How the data were processed

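RNA of dorsal root ganglia was extracted with Trizol and made into libraries with a Lexogen Quant-Seq kit, per the labels' protocols. Raw read counts per gene symbol were deposited by the authors as 1 file per library, with 23282 rows each. Bowtie2, bedtools and the mm10 genome are named in the submitters' processing notes. Versions, annotation, strand and the handling of multiply matching reads were not given in the sources used here.

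Counts were scaled with TMM factors (edgeR 4.0.16 in R 4.3.3), 0.970 (control) and 1.03 (AEW). Ratios carry exact conditional binomial 95% intervals (Clopper-Pearson, scipy 1.17.1 in Python 3.11.15). The code was tried on simulated counts with counting error only, which cannot show how the intervals hold across mice or pools. Intervals cover counting error only, and no p-value is given because each group is 1 pool. Measured genes had a summed count of at least 20. Symbols on several rows, 35 symbols over 79 rows, were left out. Called genes differed by at least 1.5-fold with an interval excluding 1. Scaling with DESeq2 1.42.0 size factors and other alternatives are given in the closing section. Shares of 31-base words, GC content, overlaps and coordinates are from GENCODE M21 on mm10, over whole transcripts, and promoter windows from RefSeq on GRCm38.p6.

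All 35 members are given. In each pathway list with genes of a summed count of at least 50, up to 2 genes called higher with the highest lower bound and up to 2 called lower with the lowest upper bound are named. For marker lists, counts, medians or sums are given. The members and lists were chosen with earlier results of these data known.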

Additional observations from a re-analysis of the deposited data

How the results depend on the processing

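No paired analysis was possible because each group is 1 pooled library, and for the same reason no library could be left out. The count of members called stayed at 3 or 4 higher and 2 lower with DESeq2 size factors, total count, upper quartile, total count without red blood cell, epidermal and ribosomal RNA genes, no filter on low counts and a minimum of 100. Hsp90aa1 was the gene added, under both total counts. Across these settings 15.1% to 20.4% of all genes were called higher and 12.3% to 16.0% lower. Scaling on pan-neuronal markers gave 0 higher and 24 lower, a cytosolic median log2 ratio of -0.54 and an ER median of -0.92, and it reversed Hsp90ab1 to -0.063 and Hspa1a to -0.24. Where the interval had to exclude 1.5-fold, 2 were higher, without Hspa1a, and 2 lower. At 2-fold 1 member was higher and 1 lower, beside 8.23% and 6.85% of all genes. With the limit on distance from genes of like expression, 0 were higher and 0 lower, beside 1.21% and 0.478%. With GC correction the cytosolic median was 0.21 and the ER minus cytosolic difference -0.22, and the log2 ratios of Dnaja1, Dnajb9 and Canx turned above 0 and those of Cryab and Atf4 below 0. The ER share of counts was 29.1% (control) and 23.4% (AEW) without Hsp90ab1 and Hspa5, and 30.0% and 21.4% without Hspa1a, Hspa1b, Hspb1 and Cryab. Chosen after seeing the data, leaving out both cytosolic HSP90 genes gave 46.6% and 41.9%. Leaving out members with shared sequence, also chosen later, gave 62.9% and 58.3%, a cytosolic median of 0.018 and a difference of -0.12. The cause of these shifts was not tested, except that the sums then hold fewer genes. Counts limit Creld2, Trib3 and Hspa1a most, with fewer than 100 in the control.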
